A study of Mus musculus with 12 samples.

Results

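The 10 genes described here encode 6 fibroblast growth factors (Fgf1, Fgf2, Fgf7, Fgf9, Fgf10 and Fgf12) and the 4 FGF receptor tyrosine kinases (Fgfr1, Fgfr2, Fgfr3 and Fgfr4). They were chosen by name from the platform annotation, among transcript clusters that carry a single gene symbol, and make up 10 of the 19938 genes measured. Each of the 10 had 1 cluster. RNA was taken from pooled islets of RIP1-Tag2 mice, 8 weeks of age and on the C57BL/6 background, in which the rat insulin promoter drives the SV40 T antigen in beta cells. Pancreata were digested with collagenase, the islets were collected on a density gradient, and islets were sorted by appearance into angiogenic and non angiogenic pools. Both groups thus shared age, background, transgene and isolation, and differed in the look of the islets, with 6 pools and 6 arrays in each group. The labels give no number of mice per pool and do not say whether pools came from separate mice. Every p-value below thus sets a difference against the spread between these pools, which may be partly technical.

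FGFs are secreted, or in some cases intracellular, proteins. The secreted ones bind heparan sulfate and activate the FGF receptors, which signal through docking proteins to a kinase cascade and induce their own inhibitors, among them the Sprouty, Spred and Dusp6 proteins. FGF2 acts on endothelial cells and was among the earliest angiogenic factors described, whereas FGF7 and FGF10 are made by mesenchyme and act mainly on epithelia through a splice form of FGFR2. The arrays give 1 value per gene and do not separate such splice forms.

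The promoter sequences of 5 genes are shown because the results turn on them: Fgfr2 is the member that passed the test, Fgf2 the ligand with the largest difference, and Spry1, Spred1 and Dusp6 are feedback inhibitors that were higher in angiogenic islets. Each is the stretch of 250 bases before the annotated start, 5′ to 3′ on the gene's strand, from RefSeq on GRCm38.p6. Capitals mark a GC box, GGGCGG or its reverse complement CCGCCC, or an ETS core, CCGGAA or its reverse complement TTCCGG. The positions are chr7:130266809-130267058 (minus strand) for Fgfr2, chr3:37348403-37348652 (plus) for Fgf2, chr3:37639697-37639946 (plus) for Spry1, chr2:117120821-117121070 (plus) for Spred1 and chr10:99262981-99263230 (plus) for Dusp6.
Fgfr2: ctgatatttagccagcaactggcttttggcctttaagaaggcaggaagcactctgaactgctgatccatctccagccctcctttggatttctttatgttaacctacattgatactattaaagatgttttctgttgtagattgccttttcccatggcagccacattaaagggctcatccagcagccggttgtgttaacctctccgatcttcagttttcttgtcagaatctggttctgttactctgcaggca
Fgf2: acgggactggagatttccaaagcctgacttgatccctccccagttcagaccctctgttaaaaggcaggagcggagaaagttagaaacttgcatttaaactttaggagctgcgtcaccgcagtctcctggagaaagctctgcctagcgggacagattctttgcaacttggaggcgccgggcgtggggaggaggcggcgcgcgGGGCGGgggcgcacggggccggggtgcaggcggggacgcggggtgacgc
Spry1: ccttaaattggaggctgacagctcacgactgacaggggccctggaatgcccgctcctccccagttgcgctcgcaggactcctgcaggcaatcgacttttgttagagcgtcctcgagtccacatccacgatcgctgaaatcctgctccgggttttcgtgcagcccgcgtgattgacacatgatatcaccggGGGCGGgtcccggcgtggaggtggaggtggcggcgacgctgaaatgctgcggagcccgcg
Spred1: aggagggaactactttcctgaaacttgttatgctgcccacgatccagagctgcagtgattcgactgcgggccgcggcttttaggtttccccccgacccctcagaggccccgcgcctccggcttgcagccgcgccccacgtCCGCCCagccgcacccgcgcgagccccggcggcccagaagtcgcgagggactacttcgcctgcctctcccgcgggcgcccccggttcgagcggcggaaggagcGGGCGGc
Dusp6: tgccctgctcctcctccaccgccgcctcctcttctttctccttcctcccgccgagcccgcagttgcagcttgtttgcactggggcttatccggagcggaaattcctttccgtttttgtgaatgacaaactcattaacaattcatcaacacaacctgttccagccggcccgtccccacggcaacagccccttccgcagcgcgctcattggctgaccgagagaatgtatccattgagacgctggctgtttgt
The Fgfr2 window held 2 CG dinucleotides and neither motif, whereas the Fgf2 window held 20 and 1 GC box, the Spry1 window 23 and 1, the Spred1 window 31 and 2, and the Dusp6 window 16 and no match. Over the 32851 windows of this length the median was 6 CG dinucleotides, 32.7% held a GC box and 12% an ETS core. Entries were matched for 8 of the 10 members, all but Fgf1 and Fgfr1, of which 5 held a GC box and 2 an ETS core. Those counts are of genes with a match in any of their windows, of which Fgf12 and Fgfr3 had several, whereas the shares are of single windows. A match is a string of letters and says nothing of binding in these islets.

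The values are log2 levels after RMA, a method that corrects for background, puts the arrays on 1 scale and combines the probes of each cluster. On this scale a difference of 1 is a 2-fold change. Levels are compared between groups for the same gene; a value that is high or low beside other genes is no measure of amount, since probes differ. Array medians lay between 7.30 and 7.38, no 2 arrays were identical, and correlations between arrays were 0.986 to 0.998. The arrays numbered 1 to 3 and 4 to 6 in each group stood apart: 36.9% of all genes differed in level between these 2 sets (limma with both group and set, adjusted p under 0.05), and so did 4 of the 10 members. The study speaks of 2 independent profiling experiments, but neither it nor the labels ties arrays to one of them. The pools of a group may thus not all be independent of each other. Each set contains 3 angiogenic and 3 non angiogenic arrays, and the group comparison is given over all 12 arrays, then with the set added to the fit as a block, and also for each set alone.

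Of the 10 members, 1 passed an adjusted p of 0.05 with a higher level in angiogenic islets, and none with a lower one (limma, Benjamini-Hochberg over all genes). That gene was Fgfr2, up 1.30-fold. Of all genes, 3.55% were called higher and 0.948% lower in the same comparison. At an unadjusted p under 0.05, 4 members were higher (Fgf2, Fgf7, Fgfr1 and Fgfr2) and 1 was lower (Fgf9), where 7.76% of all genes were higher and 6.59% lower. The methods' t-test gave the same counts unadjusted, 4 and 1 (7.67% and 6.95% of all genes). After adjustment it gave 1 and 0 (586 and 180 of all 19938 genes). With the set as a block, 3 members were called higher (Fgf2, Fgfr1 and Fgfr2) and 1 lower (Fgf9), where 5.88% of all genes were called higher and 2.74% lower. The median difference was 0.04 over the members and -0.02 over all genes. It was -0.08 over the ligands, of which 2 had a positive difference and 4 a negative one. Over the receptors it was 0.14, and all 4 had a positive difference, where 7987 of all 19938 genes had one. That of Fgfr4, however, was 0.01 (SE 0.10) and turned negative in 9 of 23 alternatives. That of Fgfr3 was -0.04 in replicates 1 to 3 alone.

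**Figure D1:**
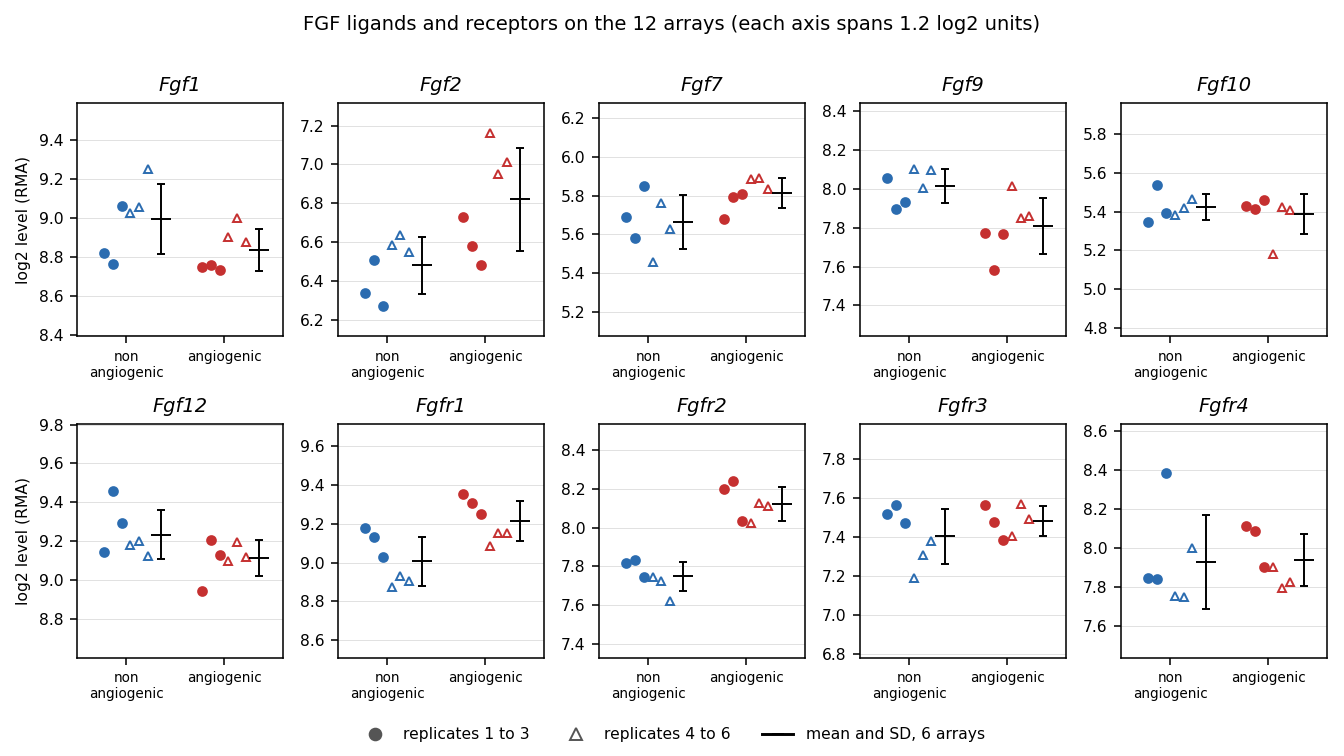
Log2 level of each of the 10 members on the 12 arrays, non angiogenic in blue and angiogenic in red, with filled circles for replicates 1 to 3 and open triangles for replicates 4 to 6. Black bars give the mean and SD of 6 arrays; only Fgfr2 has every angiogenic array above every non angiogenic one, while Fgf2 separates the groups in replicates 4 to 6 and Fgfr1 does so within each set.

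Among the ligands, Fgf2 had the largest difference. Fgf2 encodes basic FGF, a growth factor for endothelial cells and fibroblasts that leaves cells without a classical signal peptide. Its log2 level ran from 6.48 to 7.16 in angiogenic islets, with a median of 6.84, and from 6.27 to 6.64 in non angiogenic islets, with a median of 6.53. Most angiogenic pools were thus above all non angiogenic ones, but the groups overlapped. The means were 6.82 ± 0.26 and 6.48 ± 0.15 (SD, n = 6 each), a log2 difference of 0.34 (SE 0.11, 95% interval 0.10 to 0.57) with limma's adjusted p = 0.112. In the fit with both group and set, Fgf2 was also 0.33 higher in replicates 4 to 6 than in replicates 1 to 3. With the set as a block the group difference had an SE of 0.06 and an adjusted p of 0.00252 (limma). Its size could not change, since each set holds 3 arrays of each group.

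Within replicates 1 to 3, Fgf2 stood at 6.73, 6.58 and 6.48 in the angiogenic pools and at 6.34, 6.51 and 6.27 in the non angiogenic ones. Within replicates 4 to 6 it stood at 7.16, 6.95 and 7.01 against 6.59, 6.64 and 6.55. The groups overlapped in the first set and did not in the second. The differences were 0.23 (limma adjusted p = 0.244) and 0.45 (adjusted p = 0.00831), but the difference between them, 0.22, did not pass its own test (adjusted p = 0.784). Without angiogenic replicate 3, the lowest angiogenic pool, Fgf2 passed over the remaining arrays at an adjusted p of 0.0382. Of 12 fits that left out 1 array, it was the only 1 in which Fgf2 passed, and the adjusted p of the others reached 0.243 (limma). Nudt6, a gene on the opposite strand whose locus overlaps that of Fgf2, was at 7.18 ± 0.04 and 7.18 ± 0.05 (SD, n = 6 each), a difference of 0.00 (SE 0.04, adjusted p = 0.985).

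Fgf9 was the ligand with the largest negative difference. FGF9 is a secreted factor that prefers the receptor splice forms of mesenchymal cells. Its level ran from 7.58 to 8.02 in angiogenic islets (median 7.81) and from 7.89 to 8.10 in non angiogenic islets (median 8.03). Only 1 angiogenic pool, replicate 4, lay inside the non angiogenic range. The means were 7.81 ± 0.14 and 8.01 ± 0.09 (SD, n = 6 each), a log2 difference of -0.20 (SE 0.07, 95% interval -0.35 to -0.06; limma adjusted p = 0.122). With the set as a block the adjusted p was 0.0209, and without angiogenic replicate 4 it was 0.0483. Of 12 fits that left out 1 array, the latter was the only 1 in which Fgf9 passed, and the adjusted p of the others reached 0.234 (limma). Within the sets the differences were -0.25 (adjusted p = 0.154) and -0.16 (adjusted p = 0.293), with no overlap of the groups in replicates 1 to 3 and overlap in replicates 4 to 6.

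Fgf1, which encodes acidic FGF, a ligand of all 4 receptors, ran from 8.73 to 9.00 in angiogenic islets (median 8.82) and from 8.76 to 9.25 in non angiogenic islets (median 9.04). The groups overlapped over the 12 arrays. Within each set, however, all 3 angiogenic pools were below all 3 non angiogenic ones, in replicates 1 to 3 by less than 0.01 between the nearest pair. The log2 difference was -0.16 (SE 0.08, 95% interval -0.33 to 0.01), with an adjusted p of 0.402 over all arrays and 0.104 with the set as a block (limma). Fgf1 was the 1 member lower in both sets without overlap, and 2.42% of all genes showed that pattern.

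Fgf7 and Fgf10, the mesenchymal ligands, were dim on these arrays, with mean log2 values below the lower quartile of gene means, 6.19, which depends on their probes as well as on their RNA. Fgf7 ran from 5.68 to 5.89 (median 5.82) in angiogenic islets and from 5.46 to 5.85 (median 5.66) in non angiogenic islets. The groups overlapped, and the log2 difference was 0.15 (SE 0.06, 95% interval 0.01 to 0.29; limma adjusted p = 0.282). It came to 0.05 for replicates 1 to 3 and to 0.25 for replicates 4 to 6, where the groups did not overlap but the adjusted p was 0.142. Fgf10 ran from 5.18 to 5.46 (median 5.42) against 5.35 to 5.54 (median 5.41), a log2 difference of -0.04 (SE 0.06, 95% interval -0.16 to 0.08; adjusted p = 0.855). Its groups lay on top of each other apart from angiogenic replicate 4, which was the lowest array.

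Fgf12 belongs to the intracellular FGFs, which bind voltage-gated sodium channels and are not ligands of the receptors in the usual sense. It ran from 8.95 to 9.21 in angiogenic islets (median 9.12) and from 9.12 to 9.46 in non angiogenic islets (median 9.19). The groups overlapped, with a log2 difference of -0.12 (SE 0.06, 95% interval -0.26 to 0.02; limma adjusted p = 0.450). Within the sets it was -0.20 for replicates 1 to 3 and -0.03 for replicates 4 to 6.

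Of the receptors, Fgfr2 was higher in angiogenic islets by every fit that was run. Fgfr2 encodes a receptor whose epithelial splice form binds FGF7 and FGF10 and whose mesenchymal form binds FGF2 and FGF9 among others. Its log2 level ran from 8.02 to 8.24 in angiogenic islets, with a median of 8.12, and from 7.62 to 7.83 in non angiogenic islets, with a median of 7.75. Every angiogenic pool was above every non angiogenic one. The means were 8.12 ± 0.09 and 7.75 ± 0.08 (SD, n = 6 each), a log2 difference of 0.37 (SE 0.05, 95% interval 0.26 to 0.49), or 1.30-fold, with limma's adjusted p = 0.000562. Fgfr2 was the 1 member without overlap over the 12 arrays with angiogenic islets higher, a pattern shown by 2.85% of all genes.

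Fgfr2 stood at 8.20, 8.24 and 8.03 in angiogenic replicates 1 to 3 and at 7.82, 7.83 and 7.75 in the non angiogenic ones. In replicates 4 to 6 the values were 8.02, 8.12 and 8.11 against 7.75, 7.73 and 7.62. Both sets separated the groups by a similar amount, 0.36 in the first (adjusted p = 0.0353) and 0.39 in the second (adjusted p = 0.0106), and the difference between them was 0.03 (limma adjusted p = 0.967). Fgfr2 was the 1 member called in replicates 1 to 3 alone, where 2.37% of all genes were called higher. In replicates 4 to 6 alone 2 members were called higher, Fgf2 and Fgfr2, with 3.11% of all genes. Leaving out any 1 array kept the Fgfr2 difference between 0.35 and 0.39, with an adjusted p of at most 0.00194.

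Fgfr1, a receptor of mesenchymal, endothelial and endocrine cells that binds FGF1 and FGF2, ran from 9.08 to 9.35 in angiogenic islets (median 9.20) and from 8.87 to 9.18 in non angiogenic islets (median 8.98). The groups overlapped over the 12 arrays and did not overlap within either set. Replicates 1 to 3 stood at 9.35, 9.30 and 9.25 against 9.18, 9.13 and 9.03, and replicates 4 to 6 at 9.08, 9.15 and 9.15 against 8.87, 8.93 and 8.90. Fgfr1 and Fgfr2 were the 2 members higher in both sets without overlap, which 4.89% of all genes were. The means of Fgfr1 were 9.21 ± 0.10 and 9.01 ± 0.13 (SD, n = 6 each), a log2 difference of 0.21 (SE 0.07, 95% interval 0.07 to 0.35), or 1.16-fold, with limma's adjusted p = 0.105. Its level was 0.19 lower in replicates 4 to 6 than in replicates 1 to 3, and with the set as a block the adjusted p was 0.0037. Within the sets the differences were 0.19 (adjusted p = 0.212) and 0.23 (adjusted p = 0.0629).

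Fgfr3 and Fgfr4 did not pass. Fgfr3, a receptor best known for restraining bone growth, ran from 7.39 to 7.57 in angiogenic islets (median 7.48) and from 7.19 to 7.56 in non angiogenic islets (median 7.42), a log2 difference of 0.08 (SE 0.07, 95% interval -0.06 to 0.22; limma adjusted p = 0.689). The groups overlapped in replicates 1 to 3, where the difference was -0.04, and did not in replicates 4 to 6, where it was 0.20. Fgfr4, which with beta-Klotho controls bile acid synthesis in liver, ran from 7.80 to 8.11 (median 7.90) against 7.75 to 8.39 (median 7.84). Its highest array was non angiogenic replicate 3, and the difference was 0.01 (SE 0.10, 95% interval -0.21 to 0.22; adjusted p = 0.985). No member passed the test of a difference between sets in its group effect (limma; 1 member at an unadjusted p under 0.05, lowest adjusted p 0.774), nor did more than 1 of the 19938 genes.

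**Figure D2:**
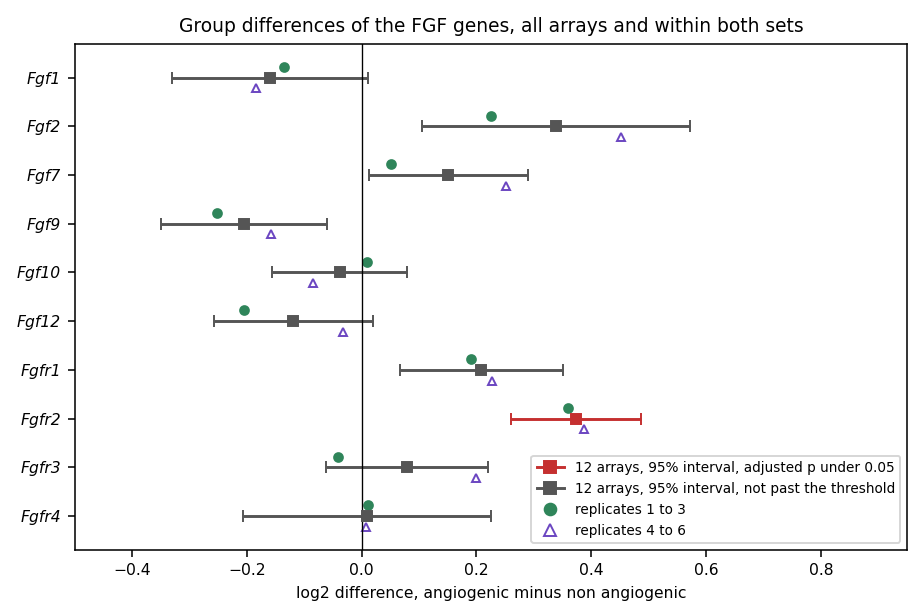
Log2 difference, angiogenic minus non angiogenic, for each of the 10 members: squares with 95% intervals are over 12 arrays, red where the adjusted p was under 0.05, circles are replicates 1 to 3 and triangles replicates 4 to 6. Fgfr2 is the red square, at 0.37, with both sets beside it; for Fgf10 and Fgfr3 the circle and the triangle lie on opposite sides of 0.

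The 3 genes whose pattern was most like that of Fgfr2, by the correlation of deviations from the mean of the own group and set over the 12 arrays, were Chtop (r = 0.971), Lcn11 (r = 0.936) and Gm11545 (r = 0.911). They were the highest of 19937 genes ranked, and the arrays shared their RNA and scaling, so the values are a description. None of the 3 passed the group comparison (limma adjusted p 0.776, 0.829 and 0.801).

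The other genes of the pathway were read from lists of 75 genes, of which 68 were measured. Over the 12 arrays 6 of the 68 were higher in angiogenic islets and 1 was lower, with a median difference of 0.00, and with the set as a block 9 and 2. Of all genes, 3.55% and 0.948% were called over the 12 arrays, and 5.88% and 2.74% with the block.

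None of the 16 other FGF ligands passed (limma; 0 higher and 1 lower at an unadjusted p under 0.05, and 0 by the methods' t-test after adjustment). Their log2 differences lay between -0.13 and 0.15, with a median of -0.03. The largest were those of Fgf14, an intracellular FGF, at 0.15 (SE 0.08, adjusted p = 0.413), and of Fgf3, a secreted ligand, at -0.13 (SE 0.06, adjusted p = 0.315). With the members counted in, none of 22 FGF genes measured thus passed over the 12 arrays without a block. With the set as a block, Fgf2 was called higher (limma adjusted p = 0.00252) and Fgf9 lower (adjusted p = 0.0209).

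Of 11 coreceptors and binding proteins, 2 were higher and 1 was lower, where 3.55% and 0.948% of all genes were called (limma). Their median difference was 0.05. The FLRT proteins, membrane proteins with leucine-rich repeats that bind FGF receptors, moved in opposite directions. Flrt2 ran from 6.62 to 7.10 in angiogenic islets (median 6.77) and from 6.03 to 6.50 in non angiogenic islets (median 6.36), with no overlap. It was 1.40-fold higher, a log2 difference of 0.49 (SE 0.09, limma adjusted p = 0.00455), with 0.29 in replicates 1 to 3 (adjusted p = 0.0529) and 0.68 in replicates 4 to 6 (adjusted p = 0.0151). Flrt1 ran from 7.86 to 8.01 (median 7.91) against 8.10 to 8.35 (median 8.30), also with no overlap, and was lower by a log2 difference of -0.33 (SE 0.05, adjusted p = 0.00169). It was -0.39 in the first set (adjusted p = 0.013) and -0.27 in the second (adjusted p = 0.0756). Of all 19938 genes, 569 had no overlap over the 12 arrays with angiogenic islets higher, and 184 with them lower. Flrt3 differed by 0.13 (SE 0.08, adjusted p = 0.485).

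Gpc1, which encodes the heparan sulfate proteoglycan glypican-1, ran from 8.72 to 8.94 in angiogenic islets (median 8.82) and from 8.53 to 8.73 in non angiogenic islets (median 8.59). The groups overlapped at their edges, and Gpc1 was 1.15-fold higher, a log2 difference of 0.21 (SE 0.05, limma adjusted p = 0.0352). That call was lost in 12 of 23 alternatives, 8 of them fits that left out 1 array, with an adjusted p of up to 0.279. Klb, the coreceptor beta-Klotho for endocrine FGFs, had a log2 difference of -0.24 (SE 0.07), with an adjusted p of 0.063 over all arrays and 0.0132 with the set as a block.

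None of the 20 measured relay genes, which carry the signal on from the receptors, passed over the 12 arrays (limma; 3 higher and 2 lower at an unadjusted p under 0.05, beside 7.76% and 6.59% of all genes, and 0 by the methods' t-test after adjustment). Their median difference was -0.02. The largest were Gab1, a docking protein, at 0.22 (SE 0.08, adjusted p = 0.148) and Braf, a kinase of the cascade, at -0.14 (SE 0.06, adjusted p = 0.283).

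Of 21 feedback inhibitors and target genes, 4 were higher in angiogenic islets and 0 were lower, with a median difference of 0.06 (limma; 8 higher and 0 lower at an unadjusted p under 0.05, beside 7.76% and 6.59% of all genes, and 4 and 0 by the methods' t-test after adjustment). Spry1, a Sprouty protein that damps receptor tyrosine kinase signals, had the largest difference. It ran from 9.05 to 9.59 in angiogenic islets (median 9.47) and from 8.66 to 8.98 in non angiogenic islets (median 8.81), with no overlap. It was 1.48-fold higher, a log2 difference of 0.57 (SE 0.09, adjusted p = 0.00114), and 0.60 and 0.54 within the sets.

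Spred1, a Sprouty-related inhibitor of the same signals, ran from 8.44 to 8.90 in angiogenic islets (median 8.66) and from 8.02 to 8.38 in non angiogenic islets (median 8.21). The groups did not overlap. It was 1.35-fold higher, a log2 difference of 0.43 (SE 0.08, limma adjusted p = 0.00719), with 0.43 in both sets. Spry1 and Spred1 passed in each of 23 alternatives, as Fgfr2 did. Dusp6, a phosphatase that inactivates MAP kinases, ran from 9.48 to 9.90 (median 9.63) against 8.94 to 9.40 (median 9.30), with no overlap. It too was 1.35-fold higher, a log2 difference of 0.43 (SE 0.09, adjusted p = 0.00967), with 0.38 in replicates 1 to 3 (adjusted p = 0.115) and 0.48 in replicates 4 to 6 (adjusted p = 0.0211). Spry1, Spred1 and Dusp6 were the 3 genes of the list without overlap, a pattern shown by 2.85% of all genes. The other listed genes of these families did not pass. Spry2 differed by 0.01, Spry3 by -0.03, Spred2 by -0.03 and Spred3 by -0.05. Dusp4 differed by 0.06 and Dusp5 by -0.09. The limma adjusted p of these genes lay between 0.684 and 0.985, and Spry4 is given below.

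The other gene of this list that passed was Lgals3, which encodes galectin-3, a sugar-binding lectin abundant in macrophages rather than an inhibitor of the pathway. It ran from 8.69 to 9.19 in angiogenic islets (median 8.97) and from 8.46 to 8.74 in non angiogenic islets (median 8.54), with overlap, and was 1.31-fold higher (log2 difference 0.39, SE 0.08, limma adjusted p = 0.00579). It was 0.46 in the first set and 0.33 in the second, where its adjusted p was 0.0879. Spry4, a further Sprouty gene, had a difference of 0.28 (SE 0.09, adjusted p = 0.101) and Etv1, an ETS factor induced by FGF signals, of 0.24 (SE 0.07, adjusted p = 0.0509). With the set as a block both passed, at adjusted p 0.0084 and 0.00833, as did Ier3, an early response gene, at 0.041. In that fit 7 of the list were called higher, where 5.88% of all genes were. Etv4 and Etv5, close relatives of Etv1 and common readouts of FGF signalling, were chosen after their values were seen, and differed by 0.01 (SE 0.06) and 0.02 (SE 0.10), with adjusted p 0.966 and 0.964.

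**Figure D3:**
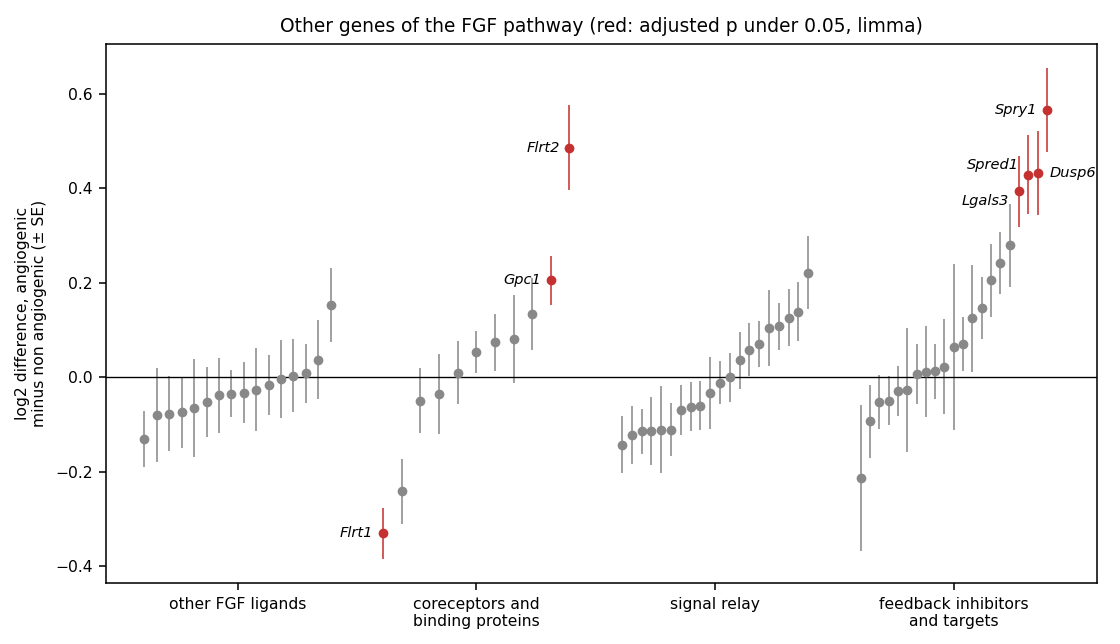
Log2 difference, angiogenic minus non angiogenic, with its SE, for the 68 measured pathway genes other than the members, sorted within 4 lists. Red points with a name had an adjusted p under 0.05: 2 coreceptors and binding proteins and 4 feedback and target genes above 0, and Flrt1 below 0; no other FGF ligand and no relay gene is red.

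**Figure D4:**
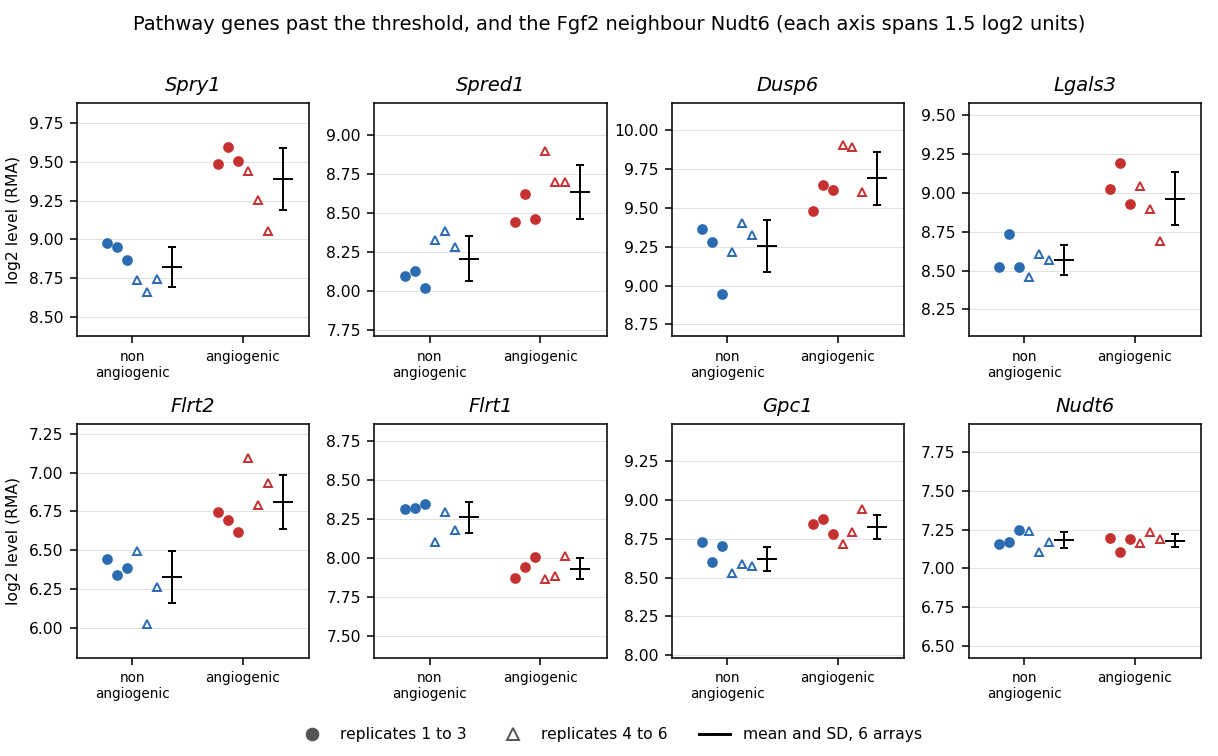
Log2 level on each of the 12 arrays for the 7 pathway genes past the threshold and for Nudt6, with non angiogenic arrays in blue, angiogenic in red, filled circles for replicates 1 to 3 and open triangles for replicates 4 to 6; black bars are the mean and SD of 6 arrays. The groups do not overlap for Spry1, Spred1, Dusp6, Flrt2 and Flrt1, overlap at the edges for Lgals3 and Gpc1, and coincide for Nudt6.

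The pools hold all cells of an islet, and fewer cells of a type and less RNA per cell cannot be told apart in them. Markers of stromal cells were mostly higher in angiogenic islets as well. Of the endothelial list 16 of 20 genes were higher in angiogenic islets and 0 lower, with a mean level of 9.26 to 9.43 against 8.80 to 8.96. Of the pericyte and smooth muscle list 12 of 14 were higher (8.41 to 8.73 against 7.80 to 7.95), of the fibroblast list 12 of 14 (8.79 to 9.04 against 7.82 to 8.17) and of the macrophage list 9 of 14 (8.44 to 8.86 against 8.05 to 8.31), with 0 lower in each. In all 4 lists the ranges of the groups did not overlap. The median differences were 0.46, 0.64, 0.75 and 0.45, and the Fgfr2 difference was 0.37. The part of these cells in the FGF results was not tested.

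The markers that head each stromal list were higher in angiogenic islets. The endothelial genes Pecam1 and Cdh5 had means of 9.50 and 10.61 in angiogenic and 8.91 and 9.85 in non angiogenic islets, and the pericyte genes Pdgfrb and Rgs5 10.14 and 10.65 against 9.06 and 9.85. The fibroblast genes Col1a1 and Col1a2 had 10.57 and 10.09 against 9.00 and 8.62, and the macrophage genes Adgre1 and Csf1r 8.53 and 8.96 against 7.88 and 8.40. The beta cell marker Ins2 was at 13.21 ± 0.04 and 13.22 ± 0.05 (SD, n = 6 each), and of 11 beta cell markers 0 were higher and 1, Ucn3, was lower (mean level 11.34 to 11.48 against 11.36 to 11.62). The difference was negative for 10 of the 11, and with the set as a block 3 were lower. Of the 9 markers of other endocrine cells 3 were lower, with a mean level of 10.69 to 10.93 against 11.04 to 11.08 and no overlap. Ductal markers had 1 of 8 lower (7.27 to 7.40 against 7.37 to 7.45), and mesothelial markers 1 of 10 lower (6.87 to 7.08 against 6.99 to 7.36). Schwann and neural markers had 0 of 10 in either direction (6.99 to 7.05 against 6.99 to 7.16; limma, with 0 also at an unadjusted p under 0.05 and by the methods' t-test). The part of these lists in the FGF results was not tested either.

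Acinar markers, which stand for exocrine tissue left on the islets, varied more between pools than between groups. Their mean level ran from 7.62 to 10.51 in angiogenic islets and from 7.51 to 11.65 in non angiogenic islets, and none of 13 passed (limma, with 0 also at an unadjusted p under 0.05 and by the methods' t-test). Of the 13 acinar genes, 10 had a positive difference and 3 a negative one. Their median difference was 0.35, beside 0.37 for Fgfr2. The first set alone gave an acinar median of 1.03, and the second set alone gave -0.10. In the non angiogenic pool with the highest acinar level, replicate 4, Fgfr2 was at 7.75. It was also at 7.75 in the non angiogenic pool with the lowest, replicate 3. In angiogenic replicate 2, the angiogenic pool with the lowest acinar level, Fgfr2 was at 8.24, its highest value, and in angiogenic replicate 1, with the highest, it was at 8.20. These pools were picked for their extreme acinar levels, and the part of exocrine tissue in the FGF results was not tested.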

How the data were processed

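Islet RNA from 12 pools was hybridised to Affymetrix mouse gene arrays. What the authors deposited is 1 log2 value for each transcript cluster and array, made per the labels with Affymetrix Expression Console and RMA, with versions not given in the sources used here; no further treatment of the arrays is stated. Of 35556 clusters, 21789 carried 1 symbol, 1621 several and 12146 none in the platform annotation. The brightest single-symbol cluster by the mean over all arrays stood for each of 19938 genes, of which 999 had several; all 10 member symbols were unchanged by their RefSeq IDs. RMA shrinks fold changes of dim genes, the values carry no detection call, and the number of arrays limits the precision.

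Angiogenic and non angiogenic arrays were compared with limma 3.58.1 in R 4.3.3 (lmFit and eBayes, two-sided, Benjamini-Hochberg over all genes, threshold 0.05), without covariates. For the arrays the study's main methods name the BRB-ArrayTools software, and they mention no covariate. "The methods' t-test" is the unpaired Student test, which they name beside the Mann-Whitney test for group comparisons in general. It was run on the same values. Alternatives were array weights, trend, median centring, quantile normalization, a filter on genes below the lower quartile of means, the mean of a gene's clusters, the replicate number and the set (replicates 1 to 3 or 4 to 6) as a block, each set alone, and each array left out. The code was tested on simulated data. Figures were drawn with matplotlib 3.10.9 under Python 3.11.15.

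The members, gene lists and tests were chosen with earlier results of these data known. Named genes are all members, the pathway genes past the threshold, the 2 largest differences per list that missed it, defining markers, and the 3 genes most like Fgfr2. The other listed Spry, Spred and Dusp genes were named after their values were seen. Promoters came from RefSeq (GRCm38.p6), and both strands were searched.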

Additional observations from a re-analysis of the deposited data

Results flagged for a closer look

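In 54 groups of 6 arrays, over the members, the 7 pathway genes past the threshold and the cell type marker lists, the gap from the lowest or highest array to its nearest neighbour was set against the range of the group, and 2 passed Dixon's 95% critical value. Chance alone passes about 5% of groups. Fgf10 in angiogenic replicate 4 was at a log2 level of 5.18, with the next array at 5.41 and the highest at 5.46. Without that array the Fgf10 difference was 0.0029 in place of -0.04, and it passed in neither case. The mean level of the acinar markers in angiogenic replicate 2 was 7.62, with the next angiogenic array at 9.65 and the highest at 10.51. Fgfr2 was at 8.24 in that array, and without it Fgfr2 still passed.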

How the results depend on the processing

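Over 12 arrays 1 member was higher and 0 were lower. Members called higher numbered 4 by the methods' t-test unadjusted (7.67% of all genes) and 3 with the set as a block (5.88%). They numbered 2 in replicates 4 to 6 alone (3.11%), and 1 to 2 with 1 array left out (2 without angiogenic replicate 3). Members called lower numbered 1 by the unadjusted t-test (6.95% of all genes), with quantile normalization and with the set as a block (2.74%). They numbered 0 to 1 with 1 array left out (1 without angiogenic replicate 4). Of the pathway genes, 6 were higher and 1 lower (3.55% and 0.948% of all genes). Higher calls numbered 13 by the unadjusted t-test (7.67%), 9 with the set as a block (5.88%) and 3 in replicates 1 to 3 alone (2.37%). They numbered 5 to 7 with 1 array left out. Lower calls numbered 5 by the unadjusted t-test (6.95%), and 2 with quantile normalization and with the set as a block (2.74%). They numbered 0 in replicates 4 to 6 alone (147 of 19938 genes), and 1 to 2 with 1 array left out (2 without angiogenic replicate 3). No share of all genes is given for quantile normalization or with 1 array left out. With the replicate number as a block (replicate block), 3 members were higher and 1 lower, and 8 pathway genes higher and 2 lower, where 5.31% of all genes were higher and 2.25% lower. Deviations of same-numbered arrays from their group means correlated at 0.03 to 0.54, and within sets at -0.34 to 0.12, and 2 of 6 correlated best with their own number, so the numbers were not taken to pair the pools. Small differences turned sign: Fgf10 to 0.0086 in replicates 1 to 3 alone and -0.054 to 0.0029 with 1 array left out, Fgfr3 to -0.042 in replicates 1 to 3 alone, and Fgfr4 to -0.043 with array weights, -0.0090 with median centring, -0.012 with quantile normalization and -0.027 to 0.10 with 1 array left out. None of these passed in any fit. Fgf2 passed in 4 of 23 alternatives (adjusted p 0.00252 to 0.244), Fgf9 in 4 (0.0209 to 0.293), Fgfr1 in 2 (0.0037 to 0.270) and Fgfr2 in 23 (7.02e-05 to 0.0353). Why the calls moved was not tested beyond the smaller SE that the set block gave. Signal over background was not given, so that for Fgf7 and Fgf10, which the filter on dim genes removed, a small difference may not be measurable.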
